A study of Zea mays with 29 samples.

Results

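The 80 maize genes described here lie outside a run of gene identifiers that tracks copies of 1L (chromosome 1, long arm), and their RNA in leaf was higher at the highest dose of 1L than at the lowest among plants with 2 genome sets. They were selected on measured values. Identifiers in that run of 3187 consecutive numbers were excluded, and the mean over each dosage series had to be at least 5 CPM, the count scaled to the standard library total. Group means were taken as log2(CPM + 0.5). Tetrasomics had to exceed diploids by at least 0.5 in series 1, and trisomics had to exceed monosomics by at least 0.5 in series 2. Of 40306 identifiers, 37119 lay outside the run, 12206 of these had enough reads in both series, and 161 passed both differences. Genes were ranked by the smaller of their 2 differences, the 80 highest were kept, and each is named below by its rank.

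Genes on a chromosome arm whose copy number changes are said to respond in cis, and genes elsewhere that change with them respond in trans. In plants and flies, regulators such as transcription factors and subunits of complexes are known for effects that depend on their amount relative to the rest of the genome, so one extra arm can raise or lower many genes on other chromosomes. Among such trans responses in maize, levels that fall as the arm is added (inverse effects) are well known, and rises in the same direction as the arm are the other class.

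The material was leaf of Zea mays, and all aneuploids varied in 1L. In series 1, 4 libraries were diploid (2 copies of 1L in 2 genome sets), 5 trisomic (3 copies) and 3 tetrasomic (4 copies). It also held 2 disomic haploid libraries with 2 copies of 1L in 1 genome set, and 3 haploid libraries with 1 copy. Series 2 held 4 monosomic libraries with 1 copy of 1L in 2 genome sets, 3 diploid with 2 and 3 trisomic with 3. No inbred line, plant age or way of making the aneuploids is named in the labels used here. The libraries are called biological replicates there, without a statement that each was a separate plant, so p-values measure the spread between these libraries. Libraries held 13199571 to 19860440 counted reads, so 1 CPM rested on about 13 to 20 reads.

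None of the 80 identifiers, and 0 of all 40306, occurs in the RefSeq gene table used here. The members' products, chromosomes, promoters and proteins are therefore not described, and neither the label of leaf nor the statement that the members lie outside 1L could be checked against named genes. The excluded run was taken as 1L only because its genes follow the dose, and a member could lie on 1L outside it. In a whole leaf, fewer cells of a type and less RNA per cell cannot be told apart.

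The values that chose the members are a description and carry no test. The median member was higher by 0.99 on the log2 scale in tetrasomics than in diploids (lowest 0.68, highest 3.56), against 0.05 over the 12206 genes the rule could choose. In series 2 it was higher by 1.05 in trisomics than in monosomics (lowest 0.69, highest 5.24), against -0.18 over those genes. The edge of the list was narrow, with a smaller difference of 0.679 at rank 80 and of 0.678 at rank 81, the first gene outside it. Genes that passed the mirrored thresholds, lower with more 1L, were more numerous, at 470 against 161. In series 2, however, 8782 of the 12206 genes lay below 0. Thresholds equal about 0 were thus not equal about the median gene, and the 2 counts are not directly comparable.

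**Figure D1:**
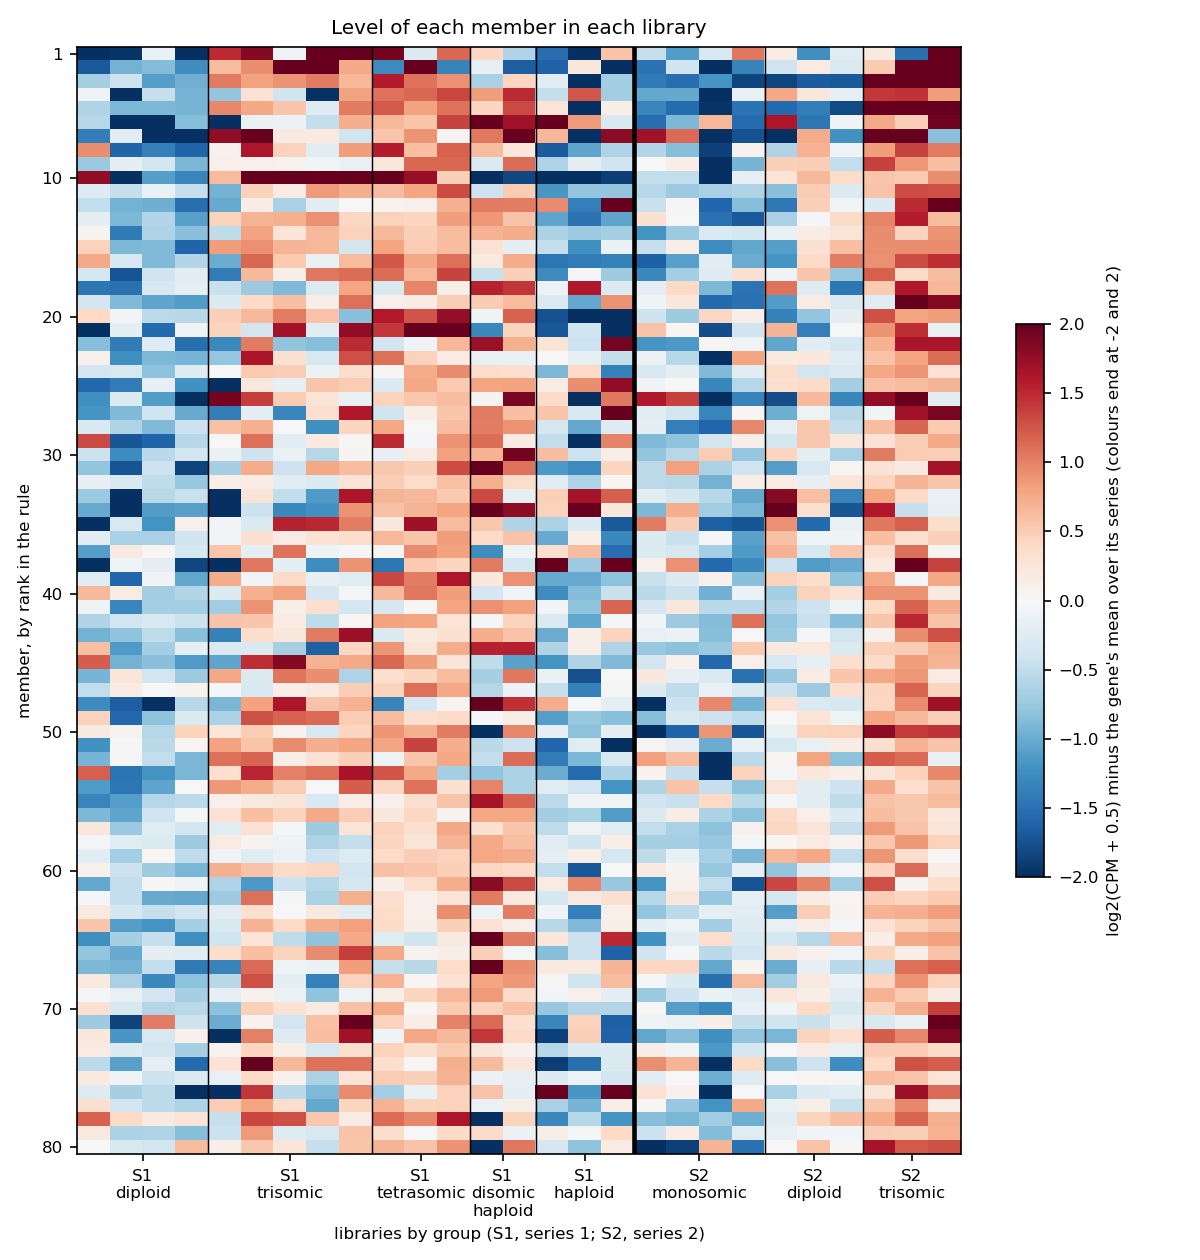
Level of each of the 80 members (rows, by rank) in each of the 27 RNA libraries (columns, by group), as log2(CPM + 0.5) minus the gene's mean over its own series, with colours ending at -2 and 2. The tetrasomic columns of series 1 and the trisomic columns of series 2 are red in most rows by the choice of members, and the disomic haploid columns, which the 2 differences did not use, lie above the gene's mean in 55 and 61 rows, against 20, 19 and 31 rows in the haploid columns.

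Disomic haploids and haploids took no part in the 2 differences of the rule and entered it only through the mean of at least 5 CPM over series 1. Ranks 12 and 25 reached that mean only with these groups, and neither passed the test between them. With the mean taken over the 4 groups of the differences alone, an alternative added after seeing the data, 76 of the 80 members stayed, and 14 of the 80 so chosen rose and 0 fell. The copy ratio of 1L between disomic haploids and haploids, 2 to 1, equals that between tetrasomics and diploids.

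In disomic haploids 14 of the 80 members (17.5%) rose against haploids and 0 fell, in edgeR's quasi-likelihood test at a Benjamini-Hochberg adjusted p below 0.05 over all 22435 genes tested. The background outside the excluded run was 1.65% called higher and 2.25% called lower. The fold change was above 0 in 72 of 80 members, against 44.1% of all genes tested outside the run, and its median was 0.79, against -0.08 for those genes. All disomic haploid libraries lay above all haploid libraries in 32 members (40%), against a background of 17.6%. The reverse held in 0 members, against 3508 of the 20534 genes tested outside the run. At an unadjusted p under 0.05, 30 of the 80 members were higher and 2 lower, against 6.78% and 12.4% of all genes tested outside the run.

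These counts rest on few libraries. Without haploid replicate 1 the number of members that rose was 4. With only the 5 compared libraries in the fit it was 0 of 80. In that fit edgeR called 0 of 21286 genes, 3997 of them had an unadjusted p under 0.05, and among the members 25 were higher and 0 lower at that level. Without disomic haploid replicate 2 the median fold change was 0.58, and ranks 50, 78 and 80 lay at -3.44, -5.26 and -3.06. Without haploid replicate 3 the median was 0.93. Leaving out either disomic haploid library leaves 1 in that group, so calls then rest on the spread within the other groups. All 80 members passed the filter on low counts.

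**Figure D2:**
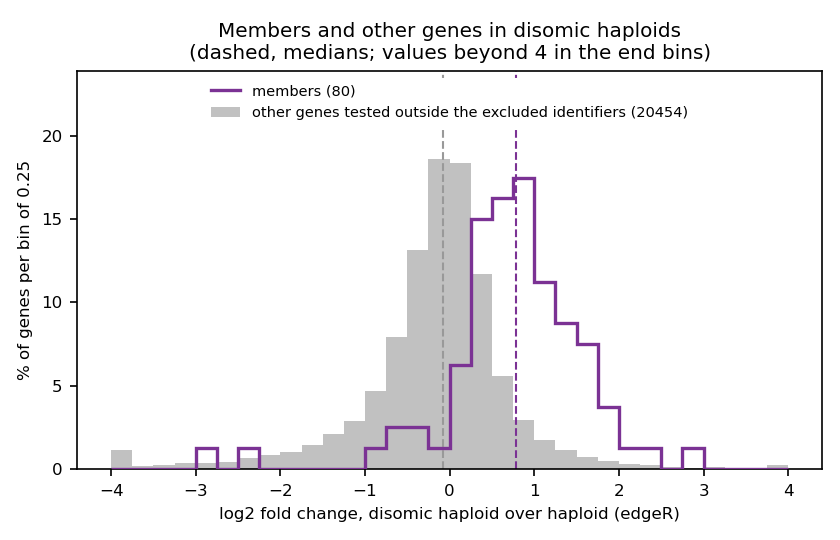
Distribution of the log2 fold change in disomic haploids over haploids (x axis; edgeR) as the percentage of genes per bin (y axis), for the 80 members (purple line) and the other genes tested outside the excluded identifiers (grey area), with dashed lines at the medians. The median is 0.79 for the members, and the lowest member is at -2.76.

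The mean over the 80 members, centred on each gene's mean over its series, places the libraries on a log2 scale. In the order of dose in series 1 it ran from -0.86 to -0.39 in diploids, from -0.25 to 0.60 in trisomics and from 0.48 to 0.68 in tetrasomics. The 2 disomic haploid libraries were at 0.38 and 0.51, and the 3 haploid libraries at -0.44, -0.66 and -0.15, so these groups did not overlap. In series 2 it ran from -0.93 to -0.30 in monosomics, from -0.25 to -0.0022 in diploids and from 0.74 to 0.99 in trisomics. The trisomics of series 1 were the widest group, and their replicate 1 alone lay below 0.

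**Figure D3:**
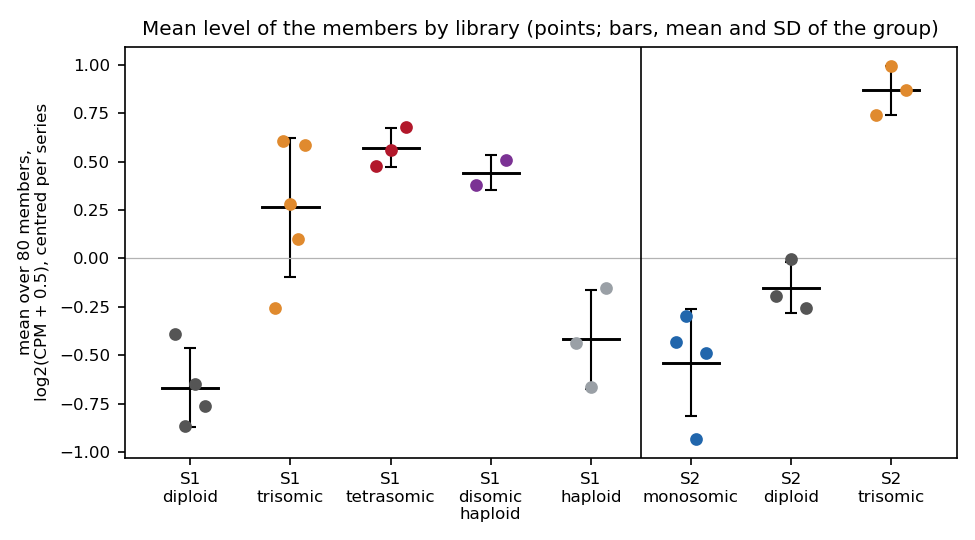
Mean over the 80 members of log2(CPM + 0.5), centred per gene and series (y axis), for each library (points) by group (x axis), with the mean and SD of the group as black bars. Both disomic haploid libraries, at 0.38 and 0.51, lie above the 3 haploid libraries.

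Members differed in how the levels in the middle dose stood between the ends, which chose them. The median member of series 1 was higher by 0.84 in trisomics than in diploids (quartiles 0.55 and 1.28) and by 0.25 in tetrasomics than in trisomics (quartiles -0.14 and 0.56). These differences share their diploids or tetrasomics with the rule. In 49 members the trisomic mean lay between those of diploids and tetrasomics, in 29 it lay above the tetrasomic mean and in 2 below the diploid mean. In series 2 the median member was higher by 0.33 in diploids than in monosomics and by 0.77 in trisomics than in diploids, so the median member stood nearer the lower dose there. The diploid mean lay between the ends in 56 members, below the monosomic mean in 21 and above the trisomic mean in 3. Over the 12206 genes the rule could choose, the median of diploids minus monosomics was -0.20, with 9650 genes below 0. That of trisomics minus diploids was 0.01. The members' levels were not adjusted for this shift, which bears on where the diploids of series 2 stood.

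Disomic haploids exceeded diploids, at 2 copies each, by 0.97 for the median member, against 0.09 over the 12206 genes the rule could choose. Haploids and diploids, which have equal doses of 1L relative to the rest, stood close for the median member, at a difference of 0.02 for haploids minus diploids. Single members ranged widely about it, from -2.63 to 3.91. Disomic haploids minus tetrasomics was -0.01 for the median member (lowest -3.82, highest 2.77), with 40 members higher and 40 lower. Diploids and tetrasomics took part in the choice, so these values are levels set side by side. Over the genes the rule could choose, these last medians were 0.07 and 0.04.

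The member with the largest rise in disomic haploids was Zm00004b020277, at rank 20. It had 28.1 and 68.2 CPM in disomic haploids, against 8.51, 3.69 and 5.89 CPM in haploids. Both disomic haploid libraries were several times higher than every haploid library, and the log2 fold change was 2.97 (SE 0.53, adjusted p = 0.00357). In the order of dose it had 39.6, 28.5, 20.5 and 20.1 CPM in diploids, 41.5, 47.0, 60.9, 44.4 and 16.6 CPM in trisomics, and 90.7, 72.3 and 101.7 CPM in tetrasomics. Series 2 held less of it, with 4.06, 3.22, 7.58 and 6.14 CPM in monosomics, 1.89, 3.02 and 4.89 CPM in diploids, and 14.2, 10.0 and 10.4 CPM in trisomics. The diploids of series 2 overlapped the monosomics and did not exceed them on average. Its call was lost without disomic haploid replicate 2 and with only the compared libraries in the fit, and over all alternatives its adjusted p ran from 2.29e-06 to 0.0890.

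Ranks 13, 55 and 56 were the members whose call was kept whichever library of series 1 was left out, and they are singled out after their values were seen. Rank 13 had 78.8 and 63.9 CPM in disomic haploids, against 20.4, 15.2 and 20.5 CPM in haploids (log2 fold change 1.86, SE 0.27, adjusted p = 0.000963). Rank 56 had 17.8 and 17.9 CPM in disomic haploids, against 6.13, 6.38 and 4.46 CPM in haploids (1.61, SE 0.30, adjusted p = 0.00421). Libraries within each of these groups lay close together, and neither gene's groups overlapped. In the order of dose rank 13 averaged 27.3 ± 7.9, 67.6 ± 9.8 and 65.2 ± 10.7 CPM in diploids, trisomics and tetrasomics (SD, n = 4, 5 and 3), and rank 56 averaged 6.87 ± 2.41, 14.9 ± 1.9 and 12.2 ± 1.5 CPM. In both, the trisomic mean reached the tetrasomic level. With only the compared libraries in the fit, the adjusted p of ranks 13, 55 and 56 was 0.0719, 0.0720 and 0.0734, the highest of all their alternatives in edgeR, DESeq2 and limma.

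Rank 55 was higher in disomic haploids than in any other group of the series. It had 61.5 and 43.6 CPM there, against 13.2, 18.2 and 18.6 CPM in haploids (log2 fold change 1.59, SE 0.26, adjusted p = 0.00190), and 20.4, 24.1 and 28.8 CPM in tetrasomics. Rank 44 shared this order, with 1339.6 and 1368 CPM in disomic haploids, against 306, 502 and 306 CPM in haploids (1.83, SE 0.41, adjusted p = 0.0130). Its tetrasomics had 855, 547 and 772 CPM, so the disomic haploid libraries exceeded each of them. The call of rank 44 was lost without either disomic haploid library or haploid replicate 1. The other 9 members that rose had log2 fold changes from 0.75 to 2.21, and 9 of the 14 that rose stood among ranks 1 to 40.

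**Figure D4:**
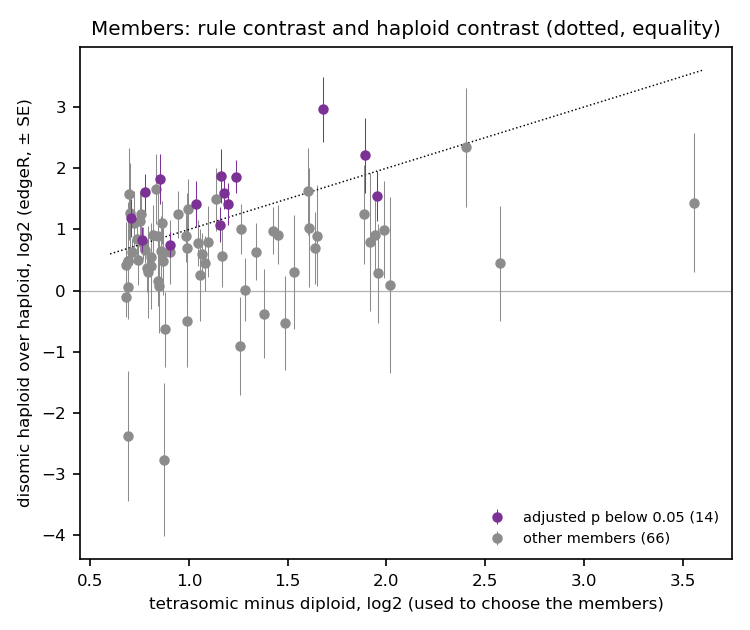
Log2 difference between tetrasomics and diploids, which helped choose the members (x axis), against the edgeR log2 fold change in disomic haploids over haploids with its SE (y axis), for the 80 members, with those that passed the test in purple and a dotted line of equality. The points spread about the line with no narrow trend, and ranks 38 and 76 lie lowest.

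Across the 80 members, the size of the difference in tetrasomics said little of the size in disomic haploids. The 2 differences share no library, and over the members Pearson's r was 0.21 and Spearman's rho 0.17, while over the 12206 genes the rule could choose they were 0.66 and 0.58. With trisomics minus monosomics of series 2 in place of the tetrasomic difference, r and rho were -0.05 and -0.05 over the members. Over the 12206 genes they were then 0.12 and 0.08. Members were kept on a limited range of both differences of the rule, and genes are not independent replicates. The member with the highest value of the rule, Zm00004b036962, shows this at single-library level. It had 48.0 and 23.6 CPM in disomic haploids, against 12.3, 6.5 and 54.0 CPM in haploids, so the groups overlapped (log2 fold change 0.44, SE 0.95, adjusted p = 0.827). Its diploids had 3.59, 8.91, 32.9 and 8.52 CPM, its trisomics 102.6, 129.7, 34.2, 160.8 and 224.9 CPM, and its tetrasomics 137.7, 29.4 and 80.8 CPM. In series 2 it had 6.26, 3.81, 6.94 and 18.9 CPM in monosomics, 9.88, 3.50 and 7.42 CPM in diploids, and 10.1, 2.78 and 104 CPM in trisomics, so 1 trisomic library carried the difference that the rule read. Rank 2 rested on 1 library in the other series, with 1.93, 26.8 and 1.82 CPM in tetrasomics.

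The fold change in disomic haploids was below 0 in 8 members, none of which passed the test. The lowest were Zm00004b025280 at rank 38 and Zm00004b007085 at rank 76. Rank 38 had 115.2 and 43.9 CPM in disomic haploids, against 367.7, 33.8 and 1067 CPM in haploids (log2 fold change -2.76, SE 1.25, adjusted p = 0.202). Rank 76 had 48.8 and 28.8 CPM in disomic haploids, against 129.9, 14.3 and 412.1 CPM in haploids (-2.37, SE 1.07, adjusted p = 0.201). In both genes haploid replicate 3 was highest of all 17 libraries and haploid replicate 2 lay below both disomic haploid libraries, so the groups overlapped. In trisomics rank 38 had 9.65, 116.6, 49.5, 23.4 and 105 CPM and rank 76 had 7.80, 89.4, 22.3, 17.6 and 63.7 CPM, with the same libraries high and low in both.

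**Figure D5:**
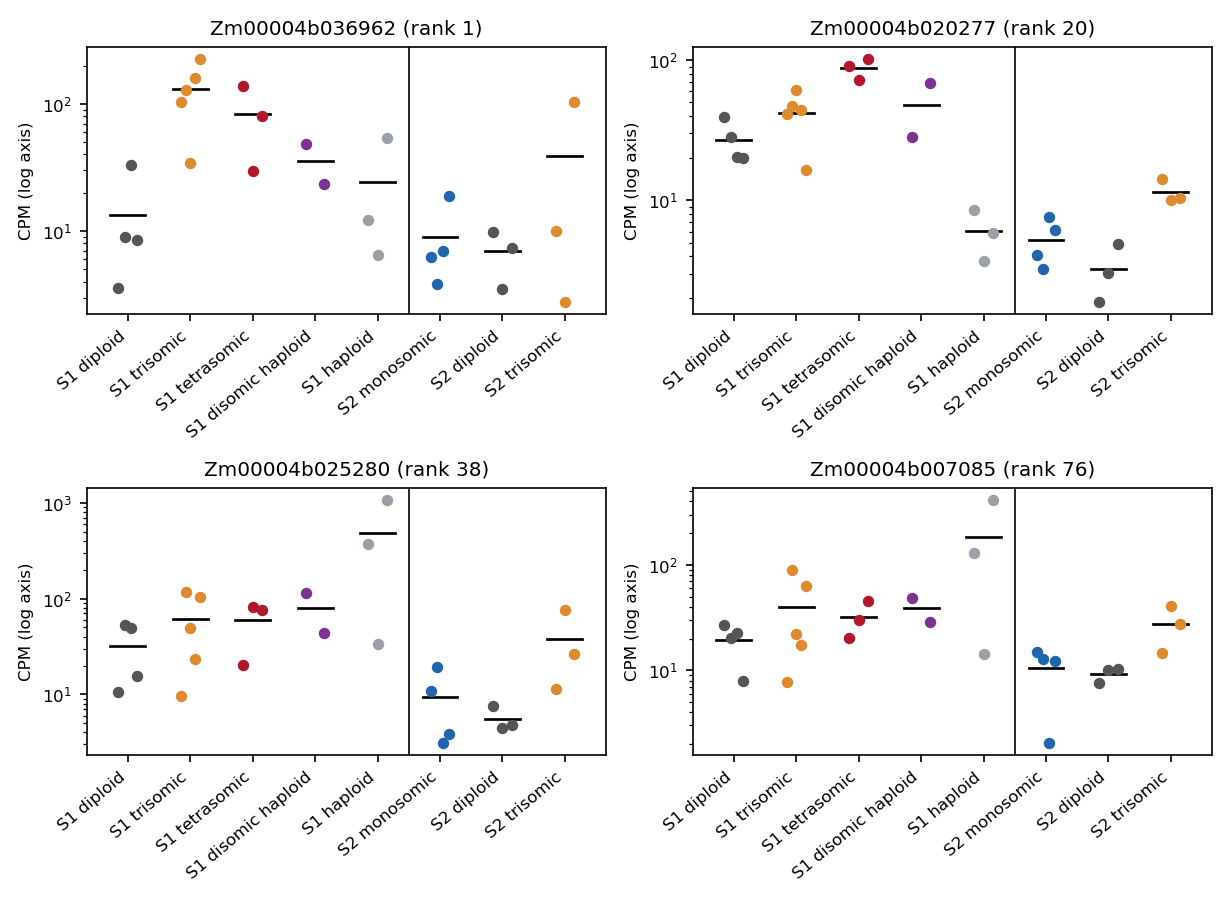
CPM (y axis, log scale) of the 4 members named by identifier in each library (points) by group (x axis; S1, series 1; S2, series 2), with black bars at group means. Zm00004b020277 has both disomic haploid libraries above all haploid libraries, and in the other panels these groups overlap.

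Haploids varied more in the members than in other genes. The spread within diploids, trisomics, tetrasomics and monosomics was not counted, so it is not shown to be particular to haploids. Rank 7, for one, ran from 0.142 to 15.1 CPM in monosomics. The highest and lowest haploid libraries were over 4 times apart in 18 members (22.5%), against 2.98% of the 12206 genes the rule could choose, and 9 of the 18 were highest in replicate 3 and lowest in replicate 2. Ranks 3, 5, 7 and 26 were under 1 CPM in haploid replicate 2 alone, with 3 CPM or more in the other haploids. Rank 5, for one, had 57.9 and 108.0 CPM in disomic haploids, against 52.3, 0.878 and 46.9 CPM in haploids. Disomic haploid libraries were over 4 times apart in 4 members (5.0%), against 0.860% of the genes the rule could choose.

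Those 4 members, ranks 6, 50, 78 and 80, are named after their values were seen. Rank 50 had 4.45 and 107.4 CPM in disomic haploids, against 49.1, 31.0 and 48.7 CPM in haploids. Rank 78 had 6.29 and 587.8 CPM in disomic haploids, against 177.1, 291.5 and 189.2 CPM in haploids. Rank 80 had 167.2 and 3095 CPM in disomic haploids, against 1178, 859.6 and 1673 CPM in haploids. In each of the 3, disomic haploid replicate 1 was the lowest library of series 1 and replicate 2 lay above every haploid. Without replicate 2, which leaves 1 disomic haploid library, the same edgeR fit gave these 3 members log2 fold changes of -3.44, -5.26 and -3.06. Ranks 50 and 80 have identifiers numbered 8215 and 8217, and in monosomics both were high in replicate 3 alone, at 175.5 CPM against 11.6 to 31.1 CPM for rank 50 and at 731 CPM against 108.7 to 161.6 CPM for rank 80. What sets these libraries apart was not tested.

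Trisomics of series 1, with 3 copies of 1L in 2 genome sets, were also set against haploids, with 1 copy in 1 set. Neither group took part in the 2 differences of the rule, but both entered the mean over series 1, the haploids are those of the comparison above, and genome sets and the ratio of 1L cannot be told apart in it. In trisomics 21 members (26.3%) rose and 3 fell against haploids in the same edgeR test, against a background of 3.28% called higher and 5.58% called lower. All trisomic libraries lay above all haploid libraries in 21 members, against a background of 5.21%. The fold change was above 0 in 61 members (76.3%), against 47.8% of all genes tested outside the run. Its median was 0.75, against -0.02 for those genes. Of the 81 genes that passed the thresholds below rank 80, 61 (75.3%) were above 0 and the median was 0.38. Without haploid replicate 1 the number of members that rose was 8. With only the compared libraries in the fit it was 12, with 0 that fell. Ranks 2 and 53, which rose, reached the mean of at least 5 CPM only with the trisomics. With that mean taken over the groups of the differences alone, 22 rose and 2 fell.

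The largest of these rises was at rank 10, with 184.6, 996.8, 615, 737 and 547 CPM in trisomics, against 17.6, 13.4 and 32.1 CPM in haploids (log2 fold change 4.89, SE 0.95, adjusted p = 0.00560). Its disomic haploids had 20.04 and 33.5 CPM, overlapping the haploids, and its diploids 409, 19.0, 55.4 and 47.3 CPM. Diploid replicate 1 thus lay at the level of trisomics and the other diploids far below. Rank 10 was also among 9 members (11.3%) whose mean differed over 4 times between series, against 1.43% of the genes the rule could choose, with 1091 to 4315 CPM in monosomics and 6944 to 9260 CPM in trisomics of series 2. Rank 20 rose as well (2.87, SE 0.48, adjusted p = 0.00241), and ranks 10, 13, 16, 20, 51, 56, 66 and 74 kept their call under every alternative fit and with every library left out.

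The 3 members that fell in trisomics were ranks 12, 34 and 38, and each had a haploid library far above all trisomic libraries. Rank 12 reached the mean of at least 5 CPM over series 1 only with the haploid groups, where it was high, so its difference is not independent of the choice of members. Rank 12 had 2.08, 5.28, 2.82, 4.02 and 4.74 CPM in trisomics, against 9.54, 1.52 and 42.6 CPM in haploids (log2 fold change -2.26, SE 0.62, adjusted p = 0.0310). Rank 34 had 1.21, 8.88, 4.71, 5.00 and 23.1 CPM in trisomics, against 17.0, 113.0 and 14.2 CPM in haploids (-2.51, SE 0.65, adjusted p = 0.0239), and rank 38 changed by -3.11 (SE 0.89, adjusted p = 0.0368). Trisomic and haploid libraries overlapped in all 3. The call of rank 12 was lost without haploid replicate 3 or trisomic replicate 1 or 3, and that of rank 34 without haploid replicate 2 or trisomic replicate 3 or 4. The call of rank 38 was lost without haploid replicate 1 or 3 or trisomic replicate 1, 3 or 4. With only the compared libraries none of the 3 was called, and DESeq2 (rank 34), limma-trend (ranks 12 and 38), the fit without a filter (rank 38) and the replicate block (ranks 12 and 38) also lost calls.

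In series 2 the widest differences were at ranks 3 and 5, whose groups with fewer copies were near 0. Rank 3 had 24.7, 25.7 and 18.9 CPM in trisomics, against 0.169, 0.117, 0.283 and 0 CPM in monosomics and 0, 0.0604 and 0.0575 CPM in diploids, which are 0 to 4 reads a library. Rank 5 had 44.1, 49.9 and 33.8 CPM in trisomics, against 0.846, 0.645, 0.354 and 0.705 CPM in monosomics and 0.631, 0.785 and 0.460 CPM in diploids. No library of lower dose came near the trisomics in either gene. In series 1 the same genes were present in diploids, at 3.43 ± 0.85 and 24.0 ± 2.8 CPM (SD, n = 4).

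Gene models of the members were shorter on the median than those of other genes, and 57 of the 80 were shorter than the median of the 12206 genes the rule could choose. Their length, which the deposited RPKM imply, ran from 222 to 25252 bp and had a median of 2303 bp (quartiles 1467 and 4809), against 4523 bp (quartiles 2670 and 7338) for those genes. Another member lay within 10 identifiers for 12 members and within 100 for 34. No background for this spacing was worked out, so the counts do not show clustering. Only rank 47 lay within 100 identifiers of the excluded run. The identifiers that follow the run, up to number 8500, held 16 members (20%), against 6.55% of the genes the rule could choose, 2 of the next 81 genes (2.47%) and 6 of 80 falling genes (7.50%). That window was chosen after seeing the positions. Members were also dense far from the run, with 7 (2.08% of the genes the rule could choose there) numbered 26000 to 26999, as many as the 7 (2.59%) numbered 8000 to 8999. Of the 16 that follow the run, 3 rose in disomic haploids and the median fold change was 0.68, against 11 of the other 64 and a median of 0.80. Of all genes tested outside the run, 1.65% rose there.

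Genes further down the same ranking and genes that fell with dose give the setting in disomic haploids. Of all genes tested outside the run, 1.65% rose against haploids, 2.25% fell and 44.1% were above 0. Of the 81 genes that passed the thresholds below rank 80, 5 rose (6.17%), 58 were above 0 (71.6%) and the median was 0.47. Of 80 genes that passed the mirrored thresholds by the largest differences, 15 fell, 0 were above 0 and the median was -1.79. The members' median of 0.79 was smaller in size than that of the falling genes, and no test of that difference was made. The lists were cut unlike, with 80 kept of 470 falling genes and 80 of 161 rising genes. Their medians are therefore not directly comparable in size. Genes of the excluded run had a median of 0.90 over 1901 tested.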

How the data were processed

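Poly(A) RNA of maize leaf was extracted with TRIzol and sequenced from TruSeq libraries, per the labels' protocols. The authors deposited raw counts of reads per gene model and RPKM values, 1 column for each of 27 RNA libraries. The deposited RPKM were checked to equal the counts divided by the table total and by 1 length per gene, and served only for lengths. Bowtie, TopHat, Cufflinks and Cuffdiff are named in the submitters' processing notes without version or role, and the genome build is not given in the sources used here. A table of DNA coverage was not used here.

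The members and all lists were chosen with earlier results of these data known. Series 1 (17 libraries) was fitted in edgeR 4.0.16 (R 4.3.3) with TMM scaling, filterByExpr, robust quasi-likelihood tests, group as the only term and Benjamini-Hochberg adjustment over 22435 genes. Tests were two-sided and genes were called at an adjusted p below 0.05. In simulated counts the test of disomic haploids against haploids recovered 16% of 100 genes changed 2-fold and 89% of 100 changed 4-fold. Most 2-fold changes were thus missed there, with 3 false calls among 22435 genes. DESeq2 recovered 32% of the 2-fold changes, with 37 false calls. Only those genes were changed in the simulation, while 1046 genes were called higher and 466 lower in the data. The share missed in the data may therefore differ. Identifiers named are the member with the highest value of the rule, the one that rose most in disomic haploids with groups that do not overlap, and the 2 with the lowest fold change there. Alternatives were DESeq2 1.42.0, limma 3.58.1, other scalings, filters, samples and member choices. Reads carry no molecular identifiers, and replicate numbers were tested as a block.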

Additional observations from a re-analysis of the deposited data

Results flagged for a closer look

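In 2 members with a call in disomic haploids, 1 of the 4 monosomic libraries stood far from the other 3. Rank 44 had 356.8 CPM in monosomic replicate 4, against 141.6 to 149.5 CPM in the other monosomics, which is the level of the trisomics of that series. Rank 55 had 10.8 CPM in monosomic replicate 3, against 5.44 to 6.04 CPM in the other monosomics. Of the 27 groups of libraries examined, 2 were marked. Chance alone can mark some groups, and how many was not tested. Monosomics took part in the choice of members and not in the comparison of disomic haploids with haploids.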

How the results depend on the processing

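The direction of the members' median in disomic haploids over haploids held under every alternative run. Single members did reverse: without disomic haploid replicate 2, ranks 50, 78 and 80 changed from 0.40, 0.49 and 0.42 to -3.44, -5.26 and -3.06. That fit holds 1 disomic haploid library. The number of members called higher there, 14 in the reported fit, was 19 with DESeq2, 14 with limma-trend, 12 without a filter, 9 with a replicate block, 0 with only the compared groups in the fit, 9 of 40 members and 6 of the 60 members with a mean of at least 20 CPM. Leaving out 1 library at a time gave 4 to 16. In series 1 trisomics against haploids, 21 in the reported fit, it was 12 with only the compared groups, 15 with a replicate block, 37 with 160 members, 10 with 40 members, and 8 to 23 with 1 library left out. The number of genes called higher outside the run moved as well. In disomic haploids it was 338 in the reported fit, 554 with DESeq2, 331 with limma-trend and 284 without a filter. There it was 247 with a replicate block and 0 with only the compared groups. In trisomics it was 674 in the reported fit, 334 with only the compared groups and 552 with a replicate block. The median log2 fold change in disomic haploids, 0.79, was 0.58 with 160 members and 0.52 with members of at least 20 CPM, and ran from 0.58 to 0.93 with 1 library left out. Members above 0, 72 in the reported fit, were 129 of 160 and 34 of 40, and 61 to 73 with 1 library left out.

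Libraries with the same replicate number did not correlate alike. Over 27 such pairs, deviations from the group means correlated at -0.387 to 0.419, and 9 pairs were over 0.1. With so few libraries in each group, these values cannot exclude pairing. The choice of members changed with its settings: 64 of the 80 were kept with TMM-scaled CPM, 64 with a pseudocount of 5, 56 with group medians, 62 without series 1 diploid replicate 1, and 23 at a mean of at least 20 CPM. The cause of these shifts was not tested. With 2 disomic haploid libraries, 3 of the 14 members called higher kept their call with every single library left out.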
